A study of Schizosaccharomyces pombe with 6 samples.

Results

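The genes described here encode the numbered proteins of the small cytosolic ribosomal subunit of the fission yeast Schizosaccharomyces pombe. They were chosen by name, as every gene called rps followed only by digits, with no use of measured values. The rule found 55 genes among 6988 counted features, and all 55 passed the filter on low counts. Grouped by protein number they encode 31 proteins: 8 come from 1 gene each, 22 from a pair of genes and S4 from 3 genes, so 47 genes fall into 23 paralogue sets. The genes rps23 and rps2302 were grouped by protein number like the rest.

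RNA was measured in 2 groups of 3 libraries, made in replicate experiments. The first is an h- strain in which pla1 carries the Y86D substitution in the active site of the nuclear poly(A) polymerase, marked with kanMX (pla1-Y86D). The second is an h- strain with the unmutated pla1 sequence marked with kanMX in the same way (pla1-WT). Both grew to log phase in the rich medium YES, and poly(A)+ RNA was sequenced from stranded paired-end libraries, so each level is that of RNA kept by the poly(A) selection. The labels do not say whether each library had its own culture or whether each strain was a single clone. The p-values therefore reflect only how far these libraries differ among themselves, and part of that may be technical.

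Small-subunit proteins fold onto the 18S rRNA. The head and the body of the subunit hold the mRNA between them, and the platform lies beside the mRNA exit. Their genes are among the most transcribed of a growing yeast cell, and TORC1, the growth-promoting kinase complex, is known to keep them active in rich medium. In fission yeast many of them exist as duplicated genes, and most of their promoters carry a short element called HomolD at the place of a TATA box, often with a second element, HomolE, just upstream. Pla1 adds the poly(A) tails of nearly all mRNAs, and in fission yeast it also works with Mmi1 and the nuclear exosome, which remove selected transcripts.

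The promoters of the 6 paralogue sets whose copies differed most in log2 fold change are shown first. Whether upstream DNA has a part in those differences was not tested. Each line gives the bases from 110 to 31 before the annotated transcript start, 5′ to 3′ on the gene's own strand, read from the RefSeq annotation of ASM294v3 by gene identifier. Capitals mark exact matches to HomolD (CAGTCACA) or HomolE (ACCCTACC) on either strand.
rps1401: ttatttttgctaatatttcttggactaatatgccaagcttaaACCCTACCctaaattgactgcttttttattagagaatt
rps1402: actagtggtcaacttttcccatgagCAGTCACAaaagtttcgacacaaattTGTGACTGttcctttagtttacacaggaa
rps1801: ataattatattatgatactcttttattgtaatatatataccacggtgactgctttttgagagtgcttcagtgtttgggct
rps1802: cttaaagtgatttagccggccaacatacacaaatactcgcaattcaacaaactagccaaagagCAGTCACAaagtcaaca
rps2801: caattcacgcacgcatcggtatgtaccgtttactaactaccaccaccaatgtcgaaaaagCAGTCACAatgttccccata
rps2802: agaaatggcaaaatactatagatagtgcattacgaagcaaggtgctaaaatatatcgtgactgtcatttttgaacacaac
rps401: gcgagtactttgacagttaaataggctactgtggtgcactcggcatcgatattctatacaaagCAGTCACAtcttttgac
rps402: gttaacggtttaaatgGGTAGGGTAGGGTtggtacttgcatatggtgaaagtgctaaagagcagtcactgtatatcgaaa
rps403: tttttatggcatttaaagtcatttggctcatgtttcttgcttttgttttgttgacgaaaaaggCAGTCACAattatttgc
rps1601: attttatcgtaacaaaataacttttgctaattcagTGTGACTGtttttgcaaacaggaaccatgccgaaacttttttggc
rps1602: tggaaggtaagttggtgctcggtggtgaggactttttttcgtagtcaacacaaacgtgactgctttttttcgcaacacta
rps901: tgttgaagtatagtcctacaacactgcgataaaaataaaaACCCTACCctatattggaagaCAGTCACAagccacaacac
rps902: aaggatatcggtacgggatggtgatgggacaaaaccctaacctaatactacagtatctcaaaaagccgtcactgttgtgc

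In S14, the copy rps1401 held HomolE 68 bases before its start and no exact HomolD, while rps1402 held 2 copies of HomolD in opposite orientations. In S18 and S28, rps1802 and rps2801 held HomolD at 47 and 50 bases, and rps1801 and rps2802 held neither element exactly. Among the S4 genes, rps401 and rps403 both held HomolD 47 bases before the start, and rps402 held 2 overlapping copies of HomolE. In S9, rps901 held both elements exactly and rps902 held no exact match to either. In S16, rps1601 held HomolD at 75 bases and rps1602 had no exact match.

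Library totals ran between 17594840 and 21173765 counts in pla1-Y86D and between 19275152 and 21849845 counts in pla1-WT. The rps genes took 8.18%, 8.21% and 8.24% of all counts in pla1-Y86D, against 8.78%, 8.99% and 9.14% in pla1-WT. Every pla1-Y86D library lay below every pla1-WT library. The large-subunit genes (rpl) took 9.92% ± 0.022 in pla1-Y86D and 11.1% ± 0.22 in pla1-WT (SD, n = 3 each). Of the counts on rps, rpl and acidic stalk (rpp) genes together, rps genes held 43.8% ± 0.11 in pla1-Y86D and 43.0% ± 0.034 in pla1-WT, a difference in the other direction from that of the share of the library.

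Across the rps genes, 33 were lower in pla1-Y86D, 14 were higher and 8 did not pass the test. A gene is called where edgeR's quasi-likelihood test gave a Benjamini-Hochberg adjusted p under 0.05 over all 6267 features tested. The background was high: 81.2% of all features were called, 41.1% as lower and 40.1% as higher, so the 47 of 55 rps genes called (85.5%) are near the background share, with 60.0% lower and 25.5% higher. The median log2 fold change (pla1-Y86D over pla1-WT) was -0.10 over the rps genes and -0.0047 over all features tested. Over the 4996 protein-coding features tested the median was -0.055, nearer to that of the rps genes, with 1779 higher and 2336 lower. Of protein-coding features other than rps and rpl genes, 733 had a mean level at or above that of the lowest rps gene. Their median was -0.02, with 295 higher and 336 lower. These features were not matched in level to the rps genes, most of which lie far above that lowest gene. The pla1-Y86D libraries all lay below the pla1-WT libraries for 34 rps genes, beside 41.5% of all features. They lay all above them for 14 rps genes, beside 40.4% of all features. The groups overlapped for 7 rps genes, and 81.9% of all features had groups that did not overlap.

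**Figure D1:**
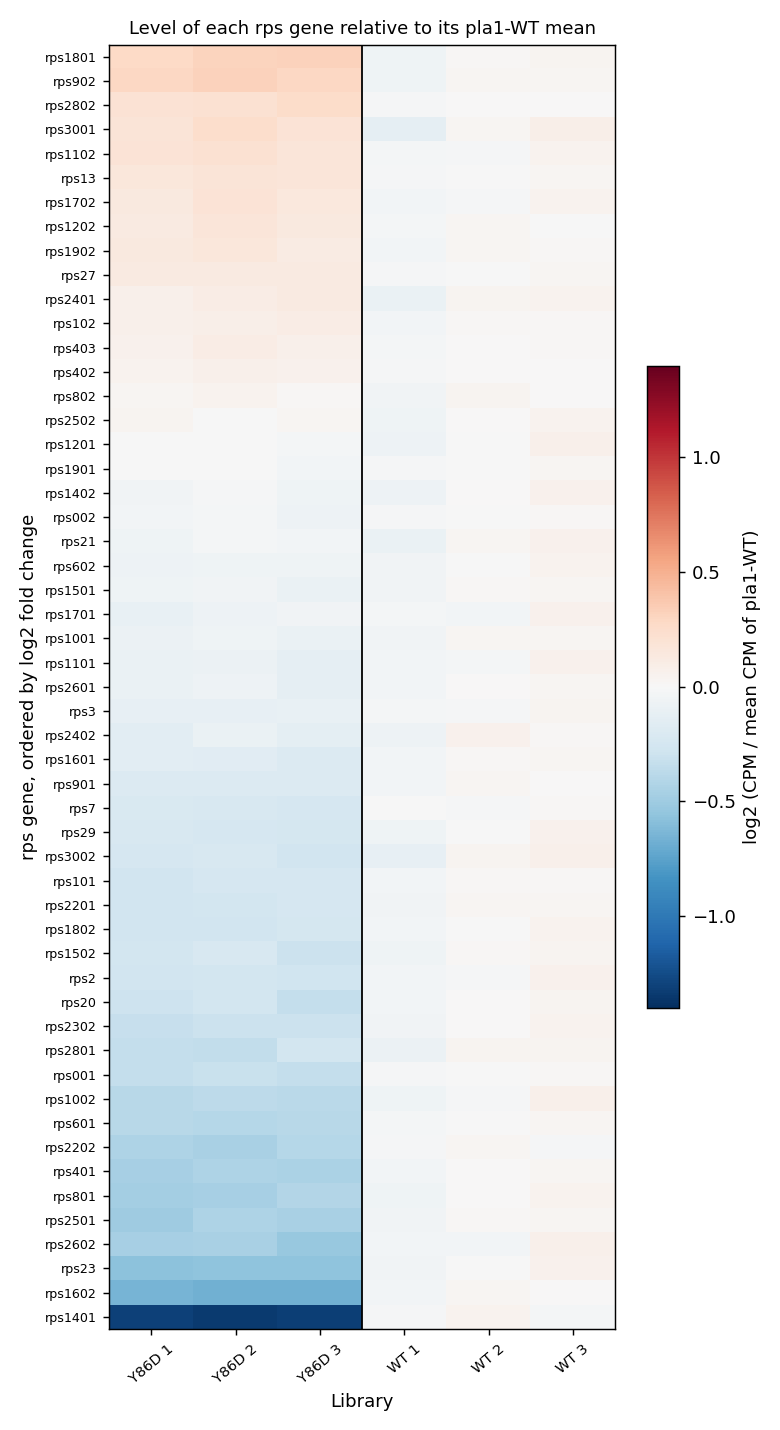
Level of 53 rps genes (vertical axis, ordered by log2 fold change) in each of the 6 libraries (horizontal axis), as the log2 ratio of its CPM, the library-scaled count, to the mean of the 3 pla1-WT libraries. The 3 pla1-Y86D columns are alike within each gene, and rps1401 at the bottom stands below the other genes.

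Most changes were small. Of all features tested, 12.2% were called lower by at least 0.5 on the log2 scale and 18.4% were called higher by at least 0.5. Among rps genes 3 were lower by that much (rps1401, rps1602 and rps23) and 0 were higher. The plot of levels by library shows the rps values as coloured cells, and the cumulative plot of fold changes sets them beside the rpl genes and all features.

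**Figure D2:**
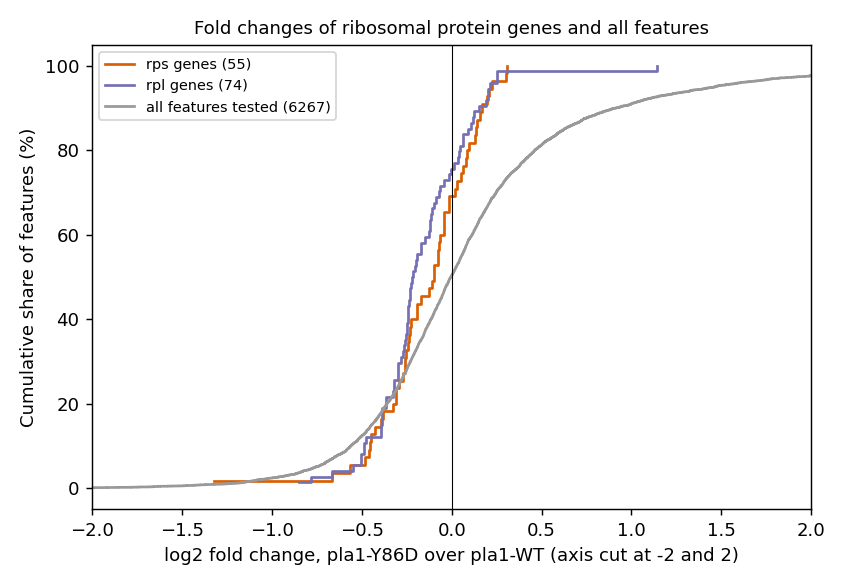
Cumulative share of features (vertical axis, %) against log2 fold change of pla1-Y86D over pla1-WT (horizontal axis, cut at -2 and 2) for the 55 rps genes, the 74 rpl genes and all 6267 features tested. The rps curve is steeper than that of all features: fold changes of rps genes ran between -1.32 and 0.31.

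Among proteins of the body and platform, 19 of 32 genes were lower, 9 were higher and 4 were not called, with a median of -0.11. The largest decrease of all rps genes was that of rps1401, which encodes S14, a platform protein near the mRNA exit. It had 119.8, 117 and 119 CPM in pla1-Y86D (CPM, the count scaled to a common library total), against 292, 305 and 289 CPM in pla1-WT. The groups lay far apart, and the log2 fold change was -1.32 (SE 0.027, adjusted p = 1.17e-30 by edgeR's quasi-likelihood test). Per kilobase of mRNA it was also the lowest of the rps genes, with 204 CPM per kb in pla1-Y86D and 508 CPM per kb in pla1-WT. The whole of rps1401 lies inside aar2 on the opposite strand, so reads of both can be told apart only if strand was used in counting, which is not given in the sources used here. aar2 had 70.9 ± 1.9 CPM in pla1-Y86D and 82.3 ± 2.1 CPM in pla1-WT (SD, n = 3 each), a log2 fold change of -0.22.

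rps23 encodes S23, a protein of the decoding centre. It had 1454, 1464 and 1460.4 CPM in pla1-Y86D, against 2083, 2151 and 2245 CPM in pla1-WT. The pla1-Y86D libraries were all lower and close together (log2 fold change -0.57, SE 0.027, adjusted p = 7.70e-20). Its partner rps2302 was lower by less, at -0.31. rps2602 encodes S26, at the mRNA exit channel, and had 1179, 1186 and 1127 CPM in pla1-Y86D, against 1581, 1581 and 1708 CPM in pla1-WT. The groups did not overlap, with a log2 fold change of -0.48 (SE 0.029, adjusted p = 4.07e-15). For rps801, which encodes S8, the levels were 1303, 1312 and 1360.0 CPM in pla1-Y86D, against 1735, 1820.2 and 1881 CPM in pla1-WT. These did not overlap either (-0.45, SE 0.028, adjusted p = 3.94e-16).

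On the higher side, rps902 encodes S9, which lines the mRNA entry. It had 2288, 2337 and 2288 CPM in pla1-Y86D, against 1794, 1909 and 1897 CPM in pla1-WT. All pla1-Y86D libraries were above all pla1-WT libraries (0.30, SE 0.027, adjusted p = 1.54e-12). rps3001 encodes S30, a small protein at the mRNA entry, and had 954, 993 and 955 CPM in pla1-Y86D, against 770.0, 855 and 891 CPM in pla1-WT. The groups did not overlap, but the pla1-WT libraries were spread widely, and the change of 0.21 had the largest standard error of the rps genes (0.054, adjusted p = 0.0116). rps1102, for S11 of the body, had 1059, 1074 and 1043 CPM in pla1-Y86D, against 909, 912 and 954 CPM in pla1-WT. rps13, the single gene for the platform protein S13, had 2458, 2489 and 2463 CPM in pla1-Y86D, against 2163, 2192 and 2228 CPM in pla1-WT. Both were above pla1-WT in every library, by 0.19 (SE 0.026, adjusted p = 2.14e-08) for rps1102 and by 0.17 (SE 0.025, adjusted p = 1.53e-07) for rps13.

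Among the other body and platform genes, rps401 at -0.45, rps2202 at -0.43, rps601 at -0.39 and rps001 at -0.33 were lower. S6, the product of rps601 and rps602, is phosphorylated when TORC1 is active. rps2 (-0.27), rps2201 (-0.25), rps101 and rps3002 (each -0.24) and rps7 (-0.22) were lower as well, and so were rps901 (-0.19), rps2402 (-0.13), rps2601 (-0.10), rps1101 (-0.10) and rps602 (-0.06). The remaining higher genes were rps27 (0.13), rps2401 (0.10), rps102 (0.09), rps403 (0.08) and rps402 (0.06). The 4 body and platform genes with no call were rps002 at -0.04 (95% interval -0.09 to 0.0075), rps802 at 0.03 (-0.02 to 0.08), rps1402 at -0.04 (-0.10 to 0.02) and rps21 at -0.04 (-0.11 to 0.02). For rps002 the libraries of the 2 strains did not overlap even so, with 2135, 2158 and 2096 CPM in pla1-Y86D, against 2177, 2187 and 2218 CPM in pla1-WT.

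Among proteins of the head, 14 of 23 genes were lower, 5 were higher and 4 were not called, with a median of -0.08. rps1602 encodes S16, whose tail reaches toward the tRNA in the peptidyl site. It had 658, 649 and 649 CPM in pla1-Y86D, against 1009, 1058 and 1038 CPM in pla1-WT. The groups were well apart (-0.67, SE 0.025, adjusted p = 1.34e-22). rps2501, for S25 of the head, had 486, 507 and 499 CPM in pla1-Y86D, against 664, 692 and 701 CPM in pla1-WT. Again every pla1-Y86D library was lower (-0.46, SE 0.026, adjusted p = 8.67e-18).

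The largest increase of all rps genes was that of rps1801, for S18, a head protein that touches the large subunit. It had 978, 999.7 and 1005 CPM in pla1-Y86D, against 770, 814 and 825 CPM in pla1-WT, with no overlap (0.31, SE 0.027, adjusted p = 1.15e-12). rps2802, for S28 beside the mRNA exit, had 839, 843 and 868 CPM in pla1-Y86D, against 721, 731 and 732 CPM in pla1-WT. It too was higher in every library (0.22, SE 0.025, adjusted p = 4.88e-10). The other higher head genes were rps1702 (0.16), rps1202 (0.14) and rps1902 (0.14).

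The other lower head genes were led by rps1002 (-0.38), rps2801 (-0.31), rps20 (-0.30), rps1502 (-0.26), rps1802 (-0.26) and rps29 (-0.23). rps1601 (-0.17), rps3 (-0.11), rps1001 (-0.08), rps1701 (-0.08) and rps1501 (-0.07) were lower by less. S3, the product of the single gene rps3, lies at the mRNA entry. The head genes with no call were rps502 at 0.05 (95% interval -0.01 to 0.12), rps1201 at -0.01 (-0.07 to 0.05), rps1901 at -0.02 (-0.07 to 0.04) and rps2502 at 0.02 (-0.03 to 0.07). The call was lost under at least 1 other processing for 7 genes with small changes: rps602, rps1501, rps1701, rps402, rps1001, rps1101 and rps2601.

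The copies of one protein's genes often differed in their fold changes. In 9 of the 23 paralogue sets 1 copy was called higher and another lower, in 7 all copies were lower and in 0 all were higher. A further 5 sets joined a lower copy with one not called, and 2 joined a higher copy with one not called. Of all features tested, 40.1% were called higher and 41.1% lower, so opposite calls are common between unrelated features too. Their frequency was not computed, so the 9 sets are not set apart from that background. The gap between the highest and the lowest log2 fold change within a set had a median of 0.33 and ran between 0.15 and 1.28. The share of a set's counts on its first copy did not overlap between the strains in any of the 23 sets, which for each set gave an exact two-sided permutation p of 0.1, the smallest that 3 libraries against 3 allow. This count stands beside 81.9% of single features without overlap.

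**Figure D3:**
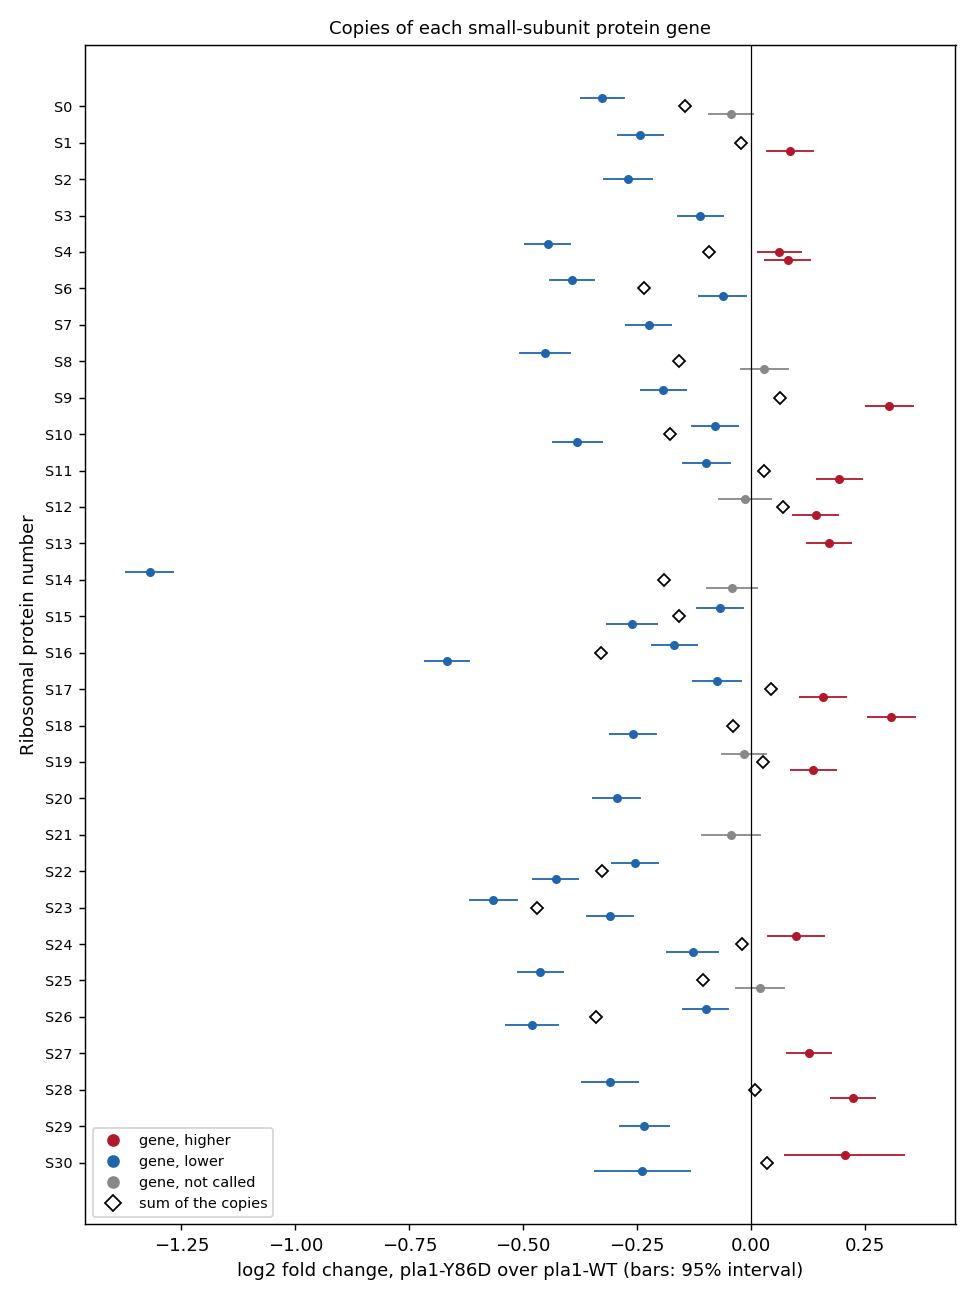
Log2 fold change of 53 rps genes (horizontal axis, points with 95% intervals, coloured by call) by ribosomal protein number (vertical axis), with the summed copies of each set as open diamonds. Copies of S14, S18 and S28 lie far apart, at -1.32 and -0.04, 0.31 and -0.26, and -0.31 and 0.22. The diamonds lie between the copies, as sums of copies must.

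S14 had the widest gap, 1.28. rps1402 had 1425, 1455 and 1409 CPM in pla1-Y86D, against 1405, 1474 and 1535 CPM in pla1-WT, and these ranges overlapped. rps1401 therefore made up 7.75%, 7.42% and 7.78% of the counts of the pair in pla1-Y86D, against 17.2%, 17.2% and 15.9% in pla1-WT. The share was lower by 9.09 percentage points on average. Both copies together had 1548 ± 22 CPM in pla1-Y86D and 1767 ± 64 CPM in pla1-WT (SD, n = 3 each), with no overlap. The coding sequences of the copies are 93.6% identical. Their mRNAs share an unbroken run of 101 bases, so reads within such a run cannot be assigned to 1 copy by sequence. The first 120 coding bases of each copy are given as an example, with the 11 bases that differ in capitals. This stretch does not contain the whole run of 101 bases and does not stand for the rest of the sequence.
rps1401: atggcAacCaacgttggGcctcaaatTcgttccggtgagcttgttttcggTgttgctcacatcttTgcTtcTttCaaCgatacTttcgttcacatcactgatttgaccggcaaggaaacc
rps1402: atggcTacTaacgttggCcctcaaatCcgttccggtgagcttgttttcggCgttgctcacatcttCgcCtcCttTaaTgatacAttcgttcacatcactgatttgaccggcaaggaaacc

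S18 and S28 were sets whose copies went opposite ways while the sum overlapped between the strains. rps1802 had 1282, 1285 and 1299.9 CPM in pla1-Y86D, against 1501, 1533 and 1592 CPM in pla1-WT, and was lower in every library. rps1801 made up 43.3%, 43.8% and 43.6% of S18 counts in pla1-Y86D, against 33.9%, 34.7% and 34.1% in pla1-WT, a difference of 9.30 points. The S18 sum was 2283 ± 23 CPM in pla1-Y86D and 2345 ± 73 CPM in pla1-WT (SD, n = 3 each). For S28, rps2801 had 470.4, 469 and 496 CPM in pla1-Y86D, against 561, 609 and 609 CPM in pla1-WT, with no overlap. Its share of the pair was 35.9%, 35.7% and 36.4% in pla1-Y86D, against 43.7%, 45.5% and 45.4% in pla1-WT. The S28 sum was 1328 ± 31 CPM in pla1-Y86D and 1321 ± 34 CPM in pla1-WT (SD, n = 3 each), which overlapped.

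In S4 one of 3 copies moved down and the other two up. rps401 had 1416, 1445 and 1437 CPM in pla1-Y86D, against 1897, 1966 and 1995 CPM in pla1-WT, and did not overlap. rps402 had 1673, 1688 and 1684 CPM in pla1-Y86D, against 1594, 1618 and 1621 CPM in pla1-WT. rps403 had 1972, 2039 and 1991 CPM in pla1-Y86D, against 1859, 1903 and 1915 CPM in pla1-WT. Both were above pla1-WT in every library, by small amounts, and the call of rps402 was lost under other processings. The S4 sum was 5115 ± 55 CPM in pla1-Y86D and 5455 ± 94 CPM in pla1-WT (SD, n = 3 each).

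In S16 both copies were lower, to unequal degrees. rps1601 had 1645, 1630.4 and 1599 CPM in pla1-Y86D, against 1776, 1842 and 1858 CPM in pla1-WT, with no overlap. Because rps1602 was lower by more, rps1601 made up 71.4%, 71.5% and 71.1% of the pair in pla1-Y86D, against 63.8%, 63.5% and 64.2% in pla1-WT. In S9 the copies were opposite. rps901 had 1811, 1808 and 1805 CPM in pla1-Y86D, against 2016, 2104 and 2077 CPM in pla1-WT, with no overlap. Its share was 44.2%, 43.6% and 44.1% in pla1-Y86D, against 52.9%, 52.4% and 52.3% in pla1-WT. The S9 sum was higher in every pla1-Y86D library, at 4112 ± 28 CPM in pla1-Y86D and 3932 ± 108 CPM in pla1-WT (SD, n = 3 each).

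**Figure D4:**
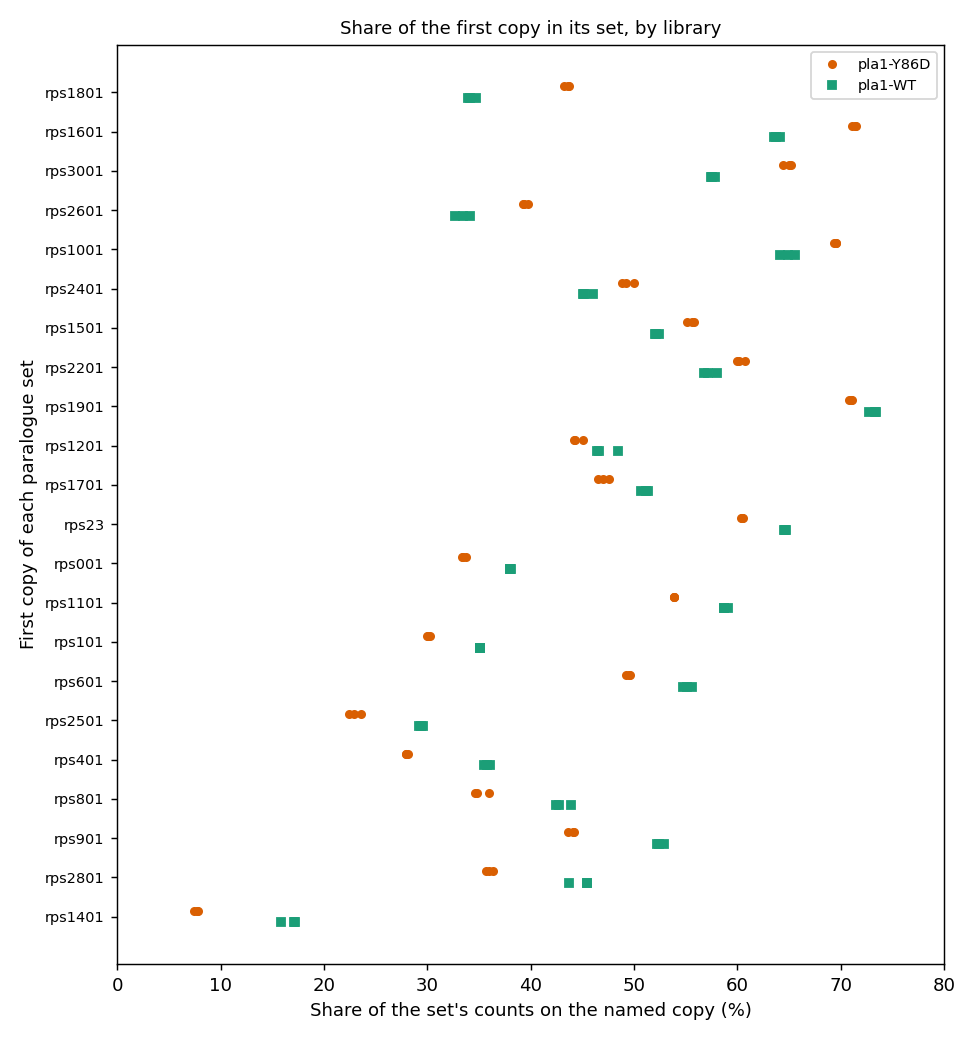
Share of the counts of 22 paralogue sets on the first copy (horizontal axis, %) in the 3 pla1-Y86D libraries (circles) and the 3 pla1-WT libraries (squares), by set (vertical axis, named by that copy). In each set drawn the circles and squares are apart: rps1801 at the top has 43.3% to 43.8% in pla1-Y86D and 33.9% to 34.7% in pla1-WT.

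The smallest gaps were those of S22 (0.17), S12 (0.15) and S19 (0.15). Coding identity between copies ran between 74.0% and 94.0%, and the longest run shared by their mRNAs had a median of 35 bases over the sets. The gap between copies and that run had a Spearman correlation of 0.16 over the 23 sets, given as a description only. How reads that match both copies were counted is not given in the sources used here. In 12 of the 22 pairs the copy with fewer CPM per kb in pla1-WT was the one with the lower log2 fold change. The rpl genes showed the same kind of values: of 30 paralogue sets, 23 had shares that did not overlap, 8 had copies called in opposite directions, and the median gap was 0.23 with a maximum of 1.26. Whether rps and rpl sets differ in this was not tested.

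Summed over copies, 18 of the 31 proteins had lower levels in every pla1-Y86D library than in every pla1-WT library, 4 had higher levels in every library, and 9 overlapped. The log2 ratio of the sums had a median of -0.11 and ran between -0.47 for S23 and 0.17 for S13. Its SD over proteins was 0.15, beside 0.28 for the log2 fold changes over genes. These SDs describe the spread of log2 differences and carry no test. The ratio of a sum lies between those of its copies by arithmetic, so the smaller SD over proteins is no finding about the copies.

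Over the rps promoters as a whole, HomolD was found in 34 of 55 windows (61.8%) that run from 250 bases before to 50 after the annotated start. It was found in 49 of 74 rpl windows (66.2%) and in 137 of all 5123 windows of that length (2.67%). The 35 matches to HomolD in rps windows lay 43 to 85 bases before the start, with a median of 52. HomolE was found in 21 rps windows (38.2%), in 19 rpl windows (25.7%) and in 83 of all windows (1.62%), and in rps windows it lay 58 to 94 bases before the start. Both strands were searched, and the letters of the 2 elements were chosen from what is known of fission yeast ribosomal protein promoters.

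Genes with and without HomolD were found among all calls: 7 of the 14 higher genes, 22 of the 33 lower genes and 5 of the 8 genes without a call held it. The 24 genes with HomolD alone had a median log2 fold change of -0.15, with 6 higher and 15 lower. The 10 with both elements had a median of -0.13, with 1 higher and 7 lower. The 11 with HomolE alone and the 10 with neither both had a median of -0.07, with 3 and 4 higher and 6 and 5 lower. In 17 pairs exactly 1 copy held HomolD, and that copy had the lower log2 fold change in 11 pairs and the higher one in 6. These counts are descriptions of exact matches, and a match is not a shown binding site. With at most 1 letter changed, HomolD lay 30 to 100 bases before the start in 53 of 55 rps genes, all but rps1401 and rps902. Most copies counted here as lacking HomolD therefore held a near match.

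**Figure D5:**
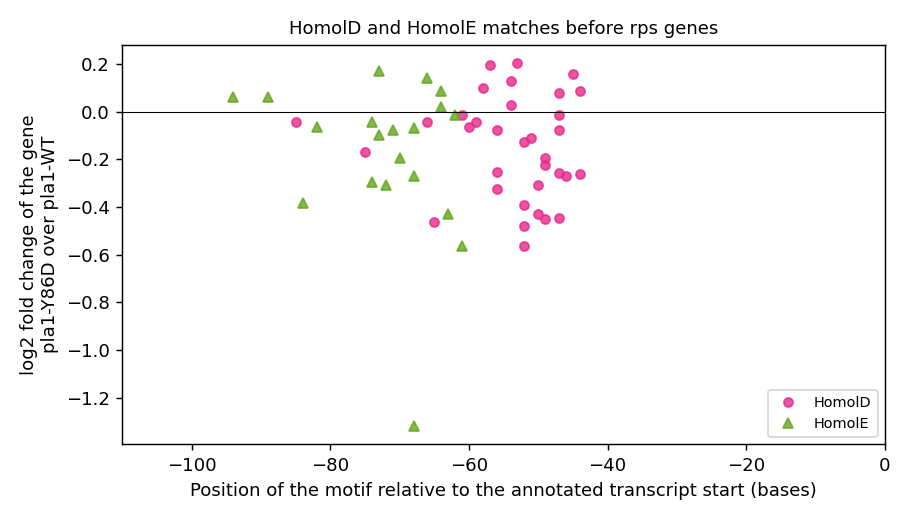
Log2 fold change of the rps gene (vertical axis, 53 genes searched) against the position of each HomolD (circles) or HomolE (triangles) match before its annotated transcript start (horizontal axis, bases). HomolD lies 43 to 85 bases before the start, nearest the gene, and HomolE 58 to 94 bases before it, at both positive and negative fold changes.

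Other features of the genes were compared in the same way. Of 24 genes without an intron, 16 were lower and 5 higher, with a median of -0.16. Of 25 with 1 intron, 14 were lower and 7 higher, with a median of -0.08. The 8 single-copy genes included 5 lower and 2 higher, with a median of -0.17, beside -0.10 for the 47 genes of paralogue sets. Over the 55 genes, log2 fold change had a Spearman correlation of 0.06 with CPM per kb in pla1-WT and of 0.02 with mRNA length, both weak and given as descriptions. In all, 23 of the 55 genes overlap another counted feature, 4 of them one on the same strand and 20 one on the opposite strand. Besides rps1401, 6 named genes lie wholly under a feature of the opposite strand. The partner was lower for rps902 (pdp1, -0.48), rps23 (ice2, -0.42), rps2602 (SPAC1805.10, -0.73) and rps1102 (SPNCRNA.1015, -0.99), and higher for rps2802 (trs130, 0.10, adjusted p = 0.0448 by edgeR). For rps1601 it was rps1601-antisense-1, which was not called. The named genes that overlap a feature in part are rps3001, over 90 bases of fcp1 (-0.27), rps1402, over 84 bases of SPNCRNA.1464 (-0.42), rps13, over 26 bases of cdc16 (0.46), and rps1801, over 7 bases of tad2-antisense-1 (4.09). In pla1-WT the CPM of the rps gene, a measure of reads not scaled for length, was at least 19.7 times that of its partner for these named genes, except 6.24 times for rps3001 and 3.59 times for rps1401. The effect of these overlaps on the counts was not tested.

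Genes that act with the small subunit were described from lists chosen with earlier results known. The calls of each list stand beside those of all features tested, 41.1% lower and 40.1% higher. Of the 74 rpl genes, 53 were lower and 14 higher, with a median of -0.22, and their values ran between -0.85 for rpl4302 and 1.14 for rpl3002. Of 7 genes for the acidic stalk of the large subunit, 5 were lower and 0 higher, led by rpp0 at -0.55. The 4 genes matched in a list of other small-subunit proteins were all lower. They were cpc2, the RACK1 homologue, at -0.23, oga1 at -0.21, and the ubiquitin fusions ubi3 and ubi5 at -0.18 each. Whether the product of oga1 is part of the subunit itself was not checked. Of 33 assembly factors of the small subunit, 23 were lower and 5 higher, with a median of -0.22. The assembly factor pno1 (-0.61), utp20 (-0.59) and imp4 (-0.55), which are parts of the early precursor particle, were lowest, and the helicase gene dbp8 (0.41) was highest.

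Among 19 genes of TORC1 and of ribosomal protein gene control, 11 were lower and 7 higher, with a median of -0.13. These counts and those below stand beside 41.1% lower and 40.1% higher of all features tested. sfp1, named for the budding yeast activator of ribosomal protein genes, had 19.5 ± 0.44 CPM in pla1-Y86D and 57.6 ± 3.0 CPM in pla1-WT (SD, n = 3 each), a log2 fold change of -1.56 (SE 0.052). tor2, the kinase of TORC1, was lower (-0.39), and fhl1 (-0.13) and rrn7 (-0.13), whose products are linked to these promoters, were lower by less. gtr1, a small GTPase upstream of TORC1, was higher (0.44), as were crf1 (0.25) and the TATA-binding protein gene tbp1 (0.72). Of 22 core stress genes, 18 were higher and 3 lower, with a median of 0.55, led by the small heat-shock gene hsp9 (3.46) and the metallothionein gene zym1 (2.87). Their summed level was 6231 to 6297 CPM in pla1-Y86D and 3034 to 3225 CPM in pla1-WT, with no overlap. Much of that difference came from hsp9, with a mean of 1941 CPM in pla1-Y86D and 176 CPM in pla1-WT. The 3 lower stress genes were atf1 (-0.49), grx1 (-0.19) and trx2 (-0.09). The part of the stress genes' levels in the rps values was not tested. Of 6 genes listed as markers of the opposite mating type, 4 were matched by name, and mat1-Pc and mat1-Pm were not. Of the 4 matched, 3 were higher and 1 lower. Their summed level was 435 to 452 CPM in pla1-Y86D and 414 to 434 CPM in pla1-WT, nearly all of it from sxa1. Mean levels of map1, map2 and map3 were 8.64, 6.11 and 7.95 CPM in pla1-Y86D and 6.94, 4.08 and 12.8 CPM in pla1-WT. No conclusion on the mating type is drawn from these values.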

How the data were processed

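Counts per gene, HTSeq 0.10.0 being named in the submitters' processing notes beside HISAT2 2.1.0, SAMtools, DESeq, DESeq2 and build ASM294v2, were deposited by the authors as raw counts of 6 libraries. Neither the strand setting nor the handling of reads that match several genes is stated in these sources. The authors' deposited table also gives DESeq2 log2 fold changes, p-values, a test score and mean normalised levels (a signal), used only as a comparison: it called the same number of rps genes lower (33) and higher (14), and its log2 fold changes lay within 0.0040 of those computed here. Counts were fitted with edgeR 4.0.16 (filterByExpr, TMM, robust quasi-likelihood test, Benjamini-Hochberg over 6267 of 6988 features) in R 4.3.3. Alternatives used DESeq2 1.42.0, limma 3.58.1 and other scalings. The fit was tested on simulated data for this comparison (6251 genes): 79.0% of genes changed by 0.3 (log2) and 97.0% of those changed by 1 were called, and 0.165% of unchanged genes. Only 200 genes were given a change there, whereas 81.2% of features were called in the real data. The simulated rates, above all that for unchanged genes, therefore do not give the error rate of the calls reported here. CPM uses TMM-scaled library totals. Intervals of fold changes are 95% intervals.

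The rule for the members used names only, but it and the lists were set with earlier results of these data known. Named genes are the 6 largest decreases and the 6 largest increases among called rps genes and the copies of the 6 sets with the widest gaps; other rps genes are given by value. One rps gene is counted in the totals but not reported here by itself. Sequences and gene models came from RefSeq ASM294v3, whose build differs from that of the files, by gene identifier (all 55 matched), so no coordinates are printed. Equal replicate numbers did not pair the libraries: deviations of same-numbered libraries correlated at -0.08, -0.0069 and -0.04.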

Additional observations from a re-analysis of the deposited data

How the results depend on the processing

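Over 15 other settings, rps genes called lower numbered 27 to 36 and genes called higher 13 to 17, and lower calls outnumbered higher ones in each setting. With protein-coding features alone, the rps median was -0.045 in place of -0.10, with 17 higher and 27 lower. The median over all features of that fit was -0.00036, while protein-coding features had a median of -0.055 in the main fit. The cause of the shift in the rps median was not tested. With a replicate block, 14 rps genes were higher and 33 lower, and the rps median stayed at -0.10. As a share of counts on rps, rpl and rpp genes in place of all counts, the difference of pla1-Y86D minus pla1-WT was 0.785 points, against -0.760 points of all counts. HomolD with at most 1 letter changed, 30 to 100 bases before the start, was in 53 of 55 rps promoters and 7.20% of all promoters, a search chosen after seeing the exact matches. Of single-gene results under these settings, 791 kept call and direction, 23 lost the call, 11 gained it and 0 reversed. Sets with copies called in opposite directions numbered 8 to 10. The 13 genes whose call changed in any setting had log2 fold changes between -0.10 and 0.06.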

Other observations

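Some rps genes are neighbours. rps2 and rps20 are transcribed away from each other with 490 bases between them and had like changes, at -0.27 and -0.30. rps29 and rps27 lie in tandem 441 bases apart and had opposite calls, at -0.23 and 0.13. The hexamer TNAAAC, the core of the site that Mmi1 binds, was in 34 of 55 rps mRNAs (61.8%, 1.28 per kb) and in 4578 of 5123 mRNAs with a model (89.4%, 1.77 per kb). These values carry no test. Noncoding RNAs on the strand opposite to an rps gene were also counted. rps1601-antisense-1, rps2601-antisense-1 and SPNCRNA.870, over rps1101, were not called. SPNCRNA.1015 over rps1102 (-0.99), SPNCRNA.1464 at rps1402 (-0.42) and rpl20-antisense-1 over rps20 (-0.28, adjusted p = 0.0403 by edgeR) were lower. SPNCRNA.317, at rps1701, did not pass the count filter.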
